A study of Danio rerio with 2 samples.

Results

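Cluster 6 of the authors' clustering is a group of endothelial cells in which posterior Hox genes, apoc1 and aqp8a.1 stood high. It was taken as the authors delimited it, by the wildtype and the mutant column of that cluster in their table of mean UMI counts per cell (UMIs are unique molecular identifiers, 1 per captured transcript). The columns held 647 of the 12352 cells in the table, 180 wildtype and 467 mutant. Zebrafish embryos were taken 27 hours after fertilization, and cells of their dissociated trunks were sorted for the mCherry of Tg(kdrl:hras-mCherry)s896, in which the promoter of the VEGF receptor gene kdrl marks endothelial cells, and were profiled by droplet sequencing of transcript 3′ ends. The wildtype line also carried Tg(miR-223:KalTA4)ya362, a Gal4 activator, and Tg(5xUAS:eGFP)nkuasgfp1a, its reporter. The mutant line carried Tg(miR-223:KalTA4)ya363 with the same UAS and kdrl transgenes, together with miR-223(ya303), so the activator line differed as well as the mutation. Both lines share the 2 fluorescent transgenes, and each genotype was 1 library. No test between genotypes was therefore possible, no p-value is given, and genotype cannot be told apart from clutch, sort or library preparation.

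Posterior blood vessels grow in a part of the embryo that is laid down last, and the level of 5′ Hox genes (paralog groups with high numbers) marks cells of the posterior trunk and tail in vertebrates. Trunk vessels of the zebrafish at this stage comprise the dorsal aorta, the cardinal vein and sprouts that leave them. Notch signalling through Dll4 and Hey2 is known for arterial identity, and scavenger receptors such as Stab2 and Lyve1b for venous identity. Aquaporins are water channels, of which zebrafish endothelial cells express Aqp1a.1 and Aqp8a.1. Apolipoproteins carry lipids and are best known from liver and yolk.

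The cluster summed 1403085 UMIs in wildtype (7795 per cell) and 3473564 in mutant (7438 per cell). It is compared with the authors' other endothelial clusters 0, 1, 2, 3 and 5 of the same library, which held 8487 cells in all. Clusters 0 and 2 were split by library. Cluster 0 held 283 wildtype and 1846 mutant cells, and cluster 2 held 1925 wildtype and 31 mutant cells, so a value of 0 in mutant cluster 2 rests on 202635 UMIs and allows up to 14.8 CPM (the usual unit of a gene's UMIs after scaling each column to the same total), from a limit of 3 counts. In the matrices, 98 cell barcodes occurred in both libraries. Intervals below are exact 95% intervals that cover counting error only, take UMIs as independent, and are too narrow where cells differ.

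The 180 cells made up 3.596% of the 5006 wildtype endothelial cells (exact binomial interval 3.10 to 4.15%). In the mutant library, 467 of 4128 endothelial cells fell into the cluster, which is 11.3% (10.4 to 12.3%). The difference was 7.72 percentage points (Newcombe interval 6.64 to 8.83). Over all 15 clusters the shares were 2.89% and 7.62%, a difference of 4.73 points. Assigning each cell of the matrices to the most likely of the authors' clusters gave larger shares, 6.48% of 5203 wildtype and 14.8% of 4427 mutant endothelial cells, with a difference of 8.30 points. Over all clusters the same assignment gave 4.50% and 7.94%, a difference of 3.43 points. Shares within a sort are relative, and the cells of the other clusters enter the denominator.

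Of the 5 genes that mark the cluster, apoc1 (apolipoprotein C-I) separated it most widely from other endothelial cells. Its level was 1976 CPM in wildtype cluster 6 (2772 UMIs) and between 11.4 CPM (cluster 0) and 59.0 CPM (cluster 3) in the other wildtype endothelial clusters. In mutant cluster 6 it was 1483 CPM (5152 UMIs), against 0 (cluster 2) to 91.7 CPM (cluster 5) elsewhere. Over the pooled UMIs of the other 5 endothelial clusters, cluster 6 held 53.0-fold more apoc1 in wildtype (49.5 to 56.8) and 31.0-fold more in mutant (29.0 to 33.0). Here and below, the pools of the 2 libraries differed in make-up. Cluster 2 was the largest part in wildtype (13850858 UMIs) and cluster 0 in mutant (13019192 UMIs). Folds over the pool are therefore not like for like between libraries. The gene was not limited to cluster 6: cluster 7, high in mesenchymal markers, had 1932 CPM in wildtype and 2818 CPM in mutant.

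The apolipoprotein E gene apoeb lies next to apoc1 on chromosome 16 in the GRCz12tu gene order, which differs from the build of the files and is used only for neighbours. It was the second apolipoprotein of the cluster, with 1071 CPM in wildtype and 918 CPM in mutant. The other wildtype endothelial clusters reached at most 271 CPM (cluster 2) and the mutant ones at most 470 CPM (cluster 0), so the groups did not overlap. Of 12 apolipoprotein genes listed and found, only these 2 reached a mean of 20 CPM. The nearby apoc2 had 4 UMIs in wildtype and 0 in mutant cluster 6, apoa2 had 0 and 5, and 7 liver and yolk genes together summed to 3.56 and 1.44 CPM.

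The water channel gene aqp8a.1 had 7540 UMIs in wildtype cluster 6 (5374 CPM) and 20021 in mutant (5764 CPM). This gene did not set cluster 6 apart from cluster 3, in which arterial markers were high: cluster 3 had 4198 CPM in wildtype and 4860 CPM in mutant. The remaining endothelial clusters lay between 202 and 833 CPM. Its neighbour on chromosome 12, aqp8a.2, had no UMI in cluster 6 of either library. The other endothelial aquaporin, aqp1a.1, was 2467 CPM in wildtype and 1169 CPM in mutant cluster 6. In cluster 3 it was 11923 CPM in wildtype and 11143 CPM in mutant, and only in mutant was the gap to cluster 6 about an order of magnitude. The 2 channels thus had different profiles, aqp8a.1 being shared by clusters 3 and 6 and aqp1a.1 standing highest in cluster 3.

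The calpain gene capn8, which codes for a calcium-dependent cysteine protease, was 52.7 CPM in wildtype cluster 6 and 221 CPM in mutant cluster 6. In the other endothelial clusters it lay at or below 11.2 CPM in wildtype and at or below 31.8 CPM in mutant. The calpain genes on each side of it on chromosome 22, capn2b and capn2l, had at most 5.70 CPM in cluster 6. The posterior Hox gene hoxc12b was 79.8 CPM in wildtype and 75.4 CPM in mutant cluster 6. Elsewhere among endothelial clusters hoxc12b reached 13.3 CPM in wildtype and 27.6 CPM in mutant, each in cluster 3. As the 5 markers were read from these same clusters, these levels are descriptions.

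**Figure D1:**
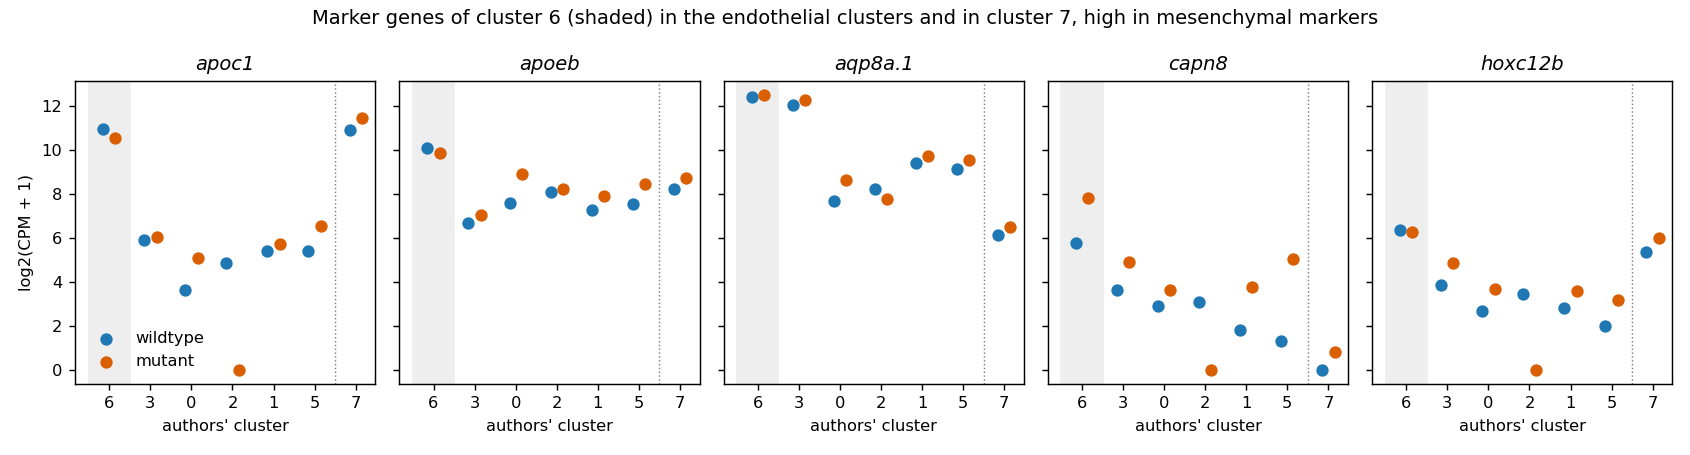
Levels of the 5 marker genes (log2 of CPM + 1) in 7 of the authors' clusters, blue for the wildtype and orange for the mutant library, with cluster 6 shaded and the non-endothelial cluster 7 right of the dotted line. apoc1 is high in clusters 6 and 7, aqp8a.1 in clusters 6 and 3, and a point at 0 for mutant cluster 2 rests on 31 cells.

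Across all genes, 17 of 3685 with at least 20 CPM in cluster 6 of both libraries (0.461%) were at least 2-fold above each of the other 5 endothelial clusters in both libraries. The clusters were made from these same genes, so such a count has no test. Besides apoc1, capn8 and hoxc12b, the 17 were hoxc13b, hoxd12a, col5a1, efemp2b, ntd5, mfap2, pald1b, nid2a, fkbp11, fkbp10b, mfge8a, dkk3b, c1qtnf5 and si:dkeyp-110a12.4. In cluster 7, 8 of the 17 were higher than in cluster 6 in both libraries (hoxc13b, col5a1, efemp2b, ntd5, mfap2, nid2a, fkbp11 and fkbp10b). The share of all genes higher in cluster 7 was not counted, so whether 8 of 17 is many or few cannot be told.

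The collagen V chain gene col5a1 was 69.8 CPM in wildtype and 61.9 CPM in mutant cluster 6, against at most 6.33 and 7.697 CPM in the other endothelial clusters. For efemp2b, which codes for a fibulin of elastic fibres, cluster 6 had 106 and 81.5 CPM and the other endothelial clusters at most 13.5 and 14.6 CPM. The microfibril gene mfap2 was 260 and 326 CPM, above maxima of 72.4 and 86.7 CPM. All 3 were higher still in cluster 7, where col5a1 was 425 and 488 CPM, efemp2b 326 and 428 CPM, and mfap2 1053 and 1016 CPM.

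Peptidyl-prolyl isomerases of the endoplasmic reticulum followed with smaller folds. The level of fkbp9 was 363 CPM in wildtype and 334 CPM in mutant cluster 6, next to 159 and 169 CPM in cluster 3. The collagen-folding gene fkbp10b was 62.7 and 70.0 CPM in cluster 6, with 27.7 and 33.8 CPM in cluster 3. The gelatinase gene mmp2 was 189 and 204 CPM, above 91.9 CPM in wildtype cluster 2 and 106 CPM in mutant cluster 0. The paladin gene pald1b, by contrast, was nearly absent from cluster 7 (5.97 and 3.06 CPM), while it reached 156 CPM in wildtype and 123 CPM in mutant cluster 6 and at most 36.6 CPM in another endothelial cluster.

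Among 35 matrix, integrin and protease genes listed and found, 11 had a mean of at least 20 CPM in cluster 6. Of these, nid2a and mmp2 were at least 2-fold above the pool of the other endothelial clusters in both libraries and timp2b at least 2-fold below it, where 1.98% and 1.1% of all 3994 genes tested were above and below. The basement membrane gene nid2a was 49.9 CPM in wildtype and 34.5 CPM in mutant, against at most 12.4 CPM in the other endothelial clusters. The floor of 20 CPM was set on cluster 6 itself, and nid2a did not reach it elsewhere, so its place above the pool is a description. The protease inhibitor gene timp2b was 78.4 and 139 CPM, below a range of 203 to 553 CPM in wildtype and 223 to 844 CPM in mutant.

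The word posterior in the cluster's name rests on its Hox genes, of which 45 were in the table. Summed over paralog groups, the level in cluster 6 relative to the other endothelial clusters grew with the group number from group 9 to group 13. For group 9, cluster 6 had 324 CPM in wildtype and 353 CPM in mutant, 1.16-fold (1.05 to 1.27) and 1.08-fold (1.02 to 1.15) the pool, and the wildtype value was 0.958-fold over the cells assigned by likelihood. Group 10 stood at 1.43-fold and 1.56-fold the pool.

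Group 11 was 431 CPM in wildtype cluster 6 and 438 CPM in mutant cluster 6, 1.99-fold and 1.88-fold the pool. For group 12 the values were 185 and 165 CPM, or 4.73-fold (4.13 to 5.42) and 3.63-fold (3.28 to 4.02). Group 13 was 116 CPM in wildtype and 74.0 CPM in mutant cluster 6, while no other endothelial cluster passed 10.6 CPM in wildtype or 7.51 CPM in mutant. Its fold over the pool was 13.9 (11.4 to 17.0) in wildtype and 15.1 (12.1 to 18.9) in mutant. Cluster 7 had more of group 13 than cluster 6, with 246 and 272 CPM, and less of group 11, with 147 and 164 CPM.

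Taken by gene, all 8 tested Hox genes of groups 11 to 13 were highest in cluster 6 of the 6 endothelial clusters in both libraries. Of the 12 tested genes of groups 1 to 10, 5 were highest there, and of all 3994 genes tested 834 (20.9%). The floor of 20 CPM was set on cluster 6 itself, and hoxc12b is a marker of the cluster, so these ranks are descriptions. Among genes of groups 11 to 13 under the floor, hoxa13a, hoxa13b and hoxc13a were highest in cluster 6 in both libraries. By contrast, hoxb13a, hoxa11a and hoxc12a were not. The values of hoxa11b rest on 1096 UMIs of cluster 6 over both libraries, those of hoxc11b on 726 and those of hoxd12a on 458. hoxc13b was 48.5 CPM in wildtype and 32.8 CPM in mutant cluster 6 and at most 4.47 CPM in another endothelial cluster. On chromosome 11 the genes hoxc13b, hoxc12b and hoxc11b are neighbours in GRCz12tu. Lower groups, taken as sums, showed that rank in part. Group 2 (15 and 45 UMIs, 1.56-fold and 1.92-fold the pool) was above all other endothelial clusters in both libraries. So was group 4 (5 and 8 UMIs, 1.98-fold and 2.29-fold). Group 7, which is hoxb7a alone, was above all other endothelial clusters in both libraries (142.5 and 131 CPM, 1.70-fold and 1.64-fold the pool), whereas group 3 was 169 CPM in wildtype cluster 6, within the 47.1 to 183 CPM of the other clusters, and 176 CPM in mutant, within 66.6 to 227 CPM.

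**Figure D2:**
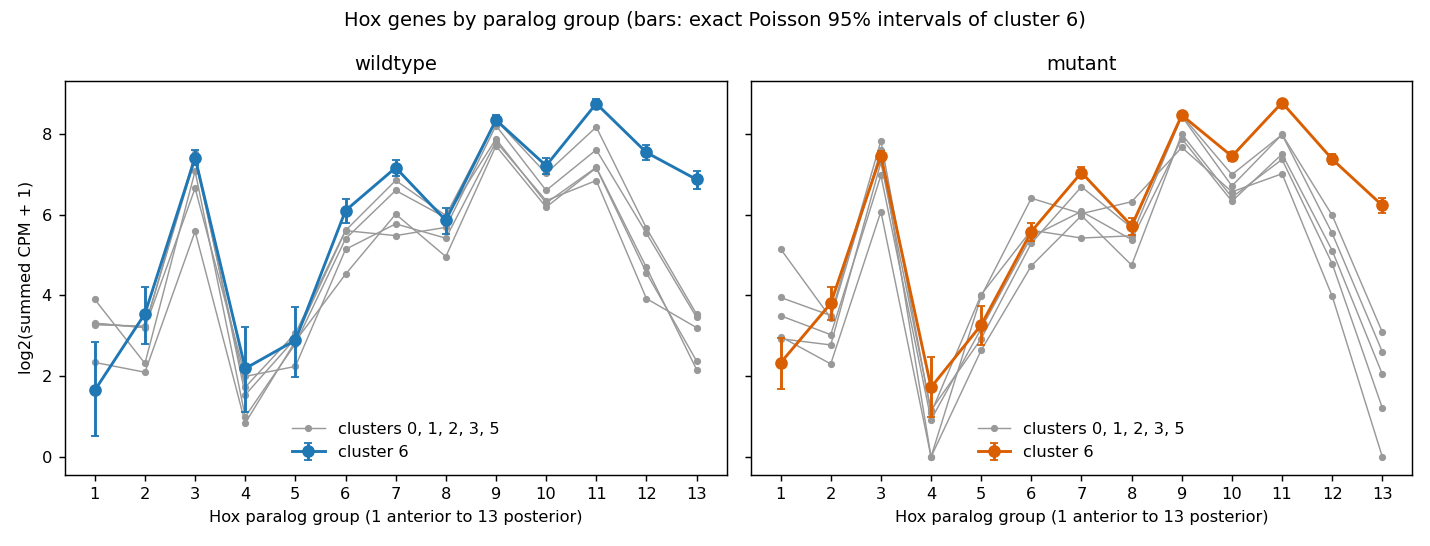
Summed level of each Hox paralog group (log2 of CPM + 1) in cluster 6 (coloured, with exact Poisson 95% intervals) and in the other 5 endothelial clusters (grey), with wildtype on the left and mutant on the right. Cluster 6 lies above all the others at groups 10 to 13 in both panels, by the widest margin at group 13, and also at groups 2, 4 and 7.

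Genes of the fin fold and tailbud were examined beside the posterior Hox genes. and2, which codes for an actinodin of the larval fin fold, was 19.96 CPM in wildtype (28 UMIs) and 23.0 CPM in mutant (80 UMIs) cluster 6. The other endothelial clusters reached at most 1.3 CPM, and cluster 7 had 3.41 and 2.29 CPM. Of the 8 fin-fold genes found it was the only 1 with a mean of at least 20 CPM. The tailbud gene tbxta (Brachyury) was 20.7 CPM (29 UMIs) and 13.8 CPM (48 UMIs), against at most 4.75 and 5.25 CPM in the other endothelial clusters and 23.0 and 12.99 CPM in cluster 7. The 23 tailbud genes found summed to 82.0 CPM in wildtype, above the 15.997 to 65.5 CPM of the other endothelial clusters, and to 94.1 CPM in mutant, within their 38.4 to 138 CPM. tbxta did not reach a mean of 20 CPM in cluster 6. Of the 2 tailbud genes that did, 1 lay above the pool of the other endothelial clusters in both libraries, as did 66.0% of all genes. Neither was 2-fold above it in both.

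Markers of other cell types were examined because several leading genes were shared with cluster 7. In cluster 6 the 15 mesenchymal genes together had 513 CPM (wildtype) and 523 CPM (mutant), within the 452 to 1161 CPM and 447 to 1098 CPM of the other endothelial clusters. Cluster 7 held 4922 and 5003 CPM of them, and 4 and 3 of the 15 were at 0 in cluster 6. Much of the sum was postnb, at 288 and 339 CPM, which was lower than in every other endothelial cluster. The 4 tested members had a median log2 ratio over the pool of 1.31 in wildtype and 1.43 in mutant (0.28 and 0.18 over all genes tested). Of these, 2, prrx1a and col5a1, were at least 2-fold above the pool in both libraries, as were 1.98% of all genes tested. The floor of 20 CPM was set on cluster 6 itself, and neither gene reached it in another endothelial cluster, so these values are descriptions. The fibrillar collagen genes col1a1a and col1a2, at 802 and 997 CPM in wildtype cluster 7, were each 15.7 CPM in wildtype cluster 6 and 7.20 and 4.32 CPM in mutant cluster 6. In the other wildtype endothelial clusters they reached at most 3.73 and 7.46 CPM. In the other mutant ones col1a1a reached at most 2.95 CPM, while col1a2 ranged from 3.19 to 19.7 CPM, which includes the value of mutant cluster 6. The part of mesenchymal transcripts in the genes shared with cluster 7 was not tested.

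Red blood cell genes, of which all 18 had UMIs, together had 6734 CPM (wildtype) and 8057 CPM (mutant) in cluster 6. These sums were the lowest of the endothelial clusters, which ranged from 8673 to 30304 CPM in wildtype and from 9229 to 21078 CPM in mutant. Myeloid genes summed to 651 and 634 CPM, with 5 and 4 of 14 at 0. Muscle genes summed to 92.7 and 115 CPM, and the 6 pronephric genes found to 2.85 and 7.20 CPM. Neural genes reached 242 and 216 CPM, above the other endothelial clusters, and nova2 alone, an RNA-binding protein gene, made up 232 and 208 CPM of them. Epidermal genes summed to 1391 and 1488 CPM, below the other endothelial clusters. The notochord genes summed to 54.9 and 53.5 CPM, above the 16.8 to 23.4 CPM and 20.7 to 44.4 CPM of the other endothelial clusters, and to 197 and 195 CPM in cluster 7. Most of the cluster 6 sums came from matn4 (24.9 and 28.8 CPM) and tbxta (20.7 and 13.8 CPM), given above as a tailbud gene. The notochord genes shha and noto had no UMI in cluster 6.

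Endothelial genes were present at levels near those of the other clusters. Of 31 endothelial genes, 26 had a mean of at least 20 CPM in cluster 6, and 20 of the 26 lay above the pool of the other endothelial clusters in both libraries, where 66.0% of all genes did. Cluster 6 was the lowest of the 6 endothelial clusters for 2 of the 26 in each library, as for 3.58% of all genes in wildtype and 3.03% in mutant. The receptor gene kdrl, whose promoter drives the sort, was 206 CPM in wildtype and 192 CPM in mutant, within the ranges of 100 to 302 and 95.8 to 336 CPM elsewhere. The junction gene cdh5 was 439 and 489 CPM, and the transcription factor gene fli1a 513 CPM in each library. Factors of endothelial and blood precursors were examined next.

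The transcription factor gene tal1 was 202 CPM in wildtype cluster 6 and 146 CPM in mutant, above the highest of the other clusters (63.5 and 84.3 CPM, each in cluster 3). Its partner lmo2 was 862 and 864 CPM, above at most 652 and 790 CPM in cluster 2. The ETS factor gene etv2 was 1156 CPM in wildtype, above all other endothelial clusters (at most 962 CPM), and 859 CPM in mutant, below the 1332 CPM of the 31 mutant cells of cluster 2. All 9 tested genes of the angioblast list were above the pool in both libraries, as were 66.0% of all genes.

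Blood stem cell factors were close to nothing. runx1, which blood stem cell emergence from endothelium requires, had 0 UMIs in cluster 6 of either library, and itga2b had 0 as well. A limit of 3 counts corresponds to 2.14 CPM (wildtype) and 0.864 CPM (mutant). That limit is approximate and takes UMIs as independent. None of the 15 hemogenic genes reached a mean of 20 CPM, and they summed to 32.8 and 21.0 CPM, while the other endothelial clusters held between 21.4 and 116 CPM in wildtype and between 25.0 and 95.7 CPM in mutant. The stem cell factor genes gata2b and gfi1aa had 1 and 0 UMIs in wildtype and 4 and 6 in mutant.

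Few genes were low in cluster 6. By the same 2-fold rule, 5 of 2005 genes with at least 20 CPM in each of the other clusters (0.249%) were below each of them in both libraries, and these were pecam1, plvapb, il13ra2, dynll1 and rgcc. Of these, plvapb, il13ra2 and dynll1 fell short of 2-fold as UMIs per cell and over the cells assigned by likelihood. The adhesion gene pecam1 was 22.8 CPM in wildtype and 25.0 CPM in mutant cluster 6, against 88.5 to 284 CPM and 73.8 to 301 CPM. plvapb, which codes for the protein of endothelial diaphragms, was 272 and 289 CPM, against 768 to 1727 CPM and 610 to 1569 CPM. The cell cycle regulator gene rgcc was 3.56 CPM (5 UMIs) and 6.05 CPM (21 UMIs), against at least 30.7 and 26.5 CPM.

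Also low, though less than 2-fold under at least 1 other cluster, were the transcription factor gene cebpb (91.9 and 97.3 CPM), the actin regulator gene cotl1 (236 and 251 CPM), cd99, thy1 and fxyd6l. Each of these 5 lay under all other endothelial clusters of its library. Their levels in wildtype and mutant cluster 6 differed by at most 0.09 on the log2 scale. The gene timp2b, whose levels are given above, was low in the same way but differed more between the libraries.

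Arterial and venous genes were both present. The 12 arterial genes summed to 731 CPM in wildtype cluster 6, between the 142 CPM of cluster 0 and the 1896 CPM of cluster 3. In mutant cluster 6 they summed to 357 CPM, between 116 and 1488 CPM. The 13 venous genes summed to 2998 CPM in wildtype, between 1640 CPM (cluster 3) and 5300 CPM (cluster 0), and to 3533 CPM in mutant, between 2074 and 5624 CPM.

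The Notch target gene hey2 was 299 CPM in wildtype cluster 6, above the 246 CPM of cluster 3, and 115 CPM in mutant cluster 6, below the 214 CPM of cluster 3. The Notch ligand gene dll4 was 153 and 73.4 CPM, under 508 and 376 CPM in cluster 3. Among venous genes, the scavenger receptor gene stab2 was 567 and 839 CPM, within 194 to 1244 CPM and 277 to 1430 CPM. The hyaluronan receptor gene lyve1b was 386 and 363 CPM, and the receptor gene flt4 331 and 288 CPM, the latter above all other endothelial clusters (at most 321 and 265 CPM).

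Single cells were examined in the matrices, after assigning each cell to the authors' cluster under which its UMIs were most likely and thinning it to 2000 UMIs. Cluster 6 then held 334 wildtype and 645 mutant cells, with 3 and 9 shallower cells left out and median depths of 10104 and 8348 UMIs before thinning. Summed over these cells, levels tracked those of the table (across genes, Pearson r = 0.995 in wildtype and 0.996 in mutant, and genes are not independent replicates). The cells were assigned by likeness to those same columns, so this closeness was built in and is no check of the assignment. An apoc1 UMI was found in 65.9% of wildtype cells (exact binomial interval 60.5 to 70.9%) and in 56.4% of mutant cells (52.5 to 60.3%). In cells of cluster 4, erythroid cells that should lack the gene, the shares were 0.469% and 0.495%, with median depths of 31023 and 27801 UMIs before thinning. In wildtype cluster 7, where the summed level was near that of cluster 6, the share was 23.6% of 148 cells (17.1 to 31.3%). The median there was 0 and the 90th percentile 19.3 UMIs.

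For aqp8a.1 the shares were 97.3% of wildtype and 93.2% of mutant cells, against 81.8% and 88.8% in cluster 3 and 3.83% and 4.91% in cluster 4. With the 5 markers left out of the assignment the cluster 6 shares were 96.5% and 89.7%, the latter close to the 88.9% of mutant cluster 3. capn8 was seen in 6.89% of the wildtype (4.42 to 10.2%) and in 16.9% of the mutant cells (14.1 to 20.02%), and hoxc12b in 10.8% and 11.01%. In cluster 4 the shares with capn8 were 0.469% and 2.78%, and those with hoxc12b 0.0782% and 0%. UMIs of Hox groups 11 to 13 together were present in 68.0% of wildtype (62.7 to 72.9%) and 66.8% of mutant cells (63.0 to 70.4%), the highest shares among the endothelial clusters, where the next were 45.4% in wildtype cluster 2 and 42.5% in mutant cluster 0. Those genes took part in the assignment, so the order of shares is a description.

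Levels of apoc1 varied widely between cells. At 2000 UMIs the median was 1 UMI in each library, the 90th percentile 8 UMIs in wildtype and 7 in mutant, and the largest counts were 43 and 32. Cells were therefore assigned once more without the 5 markers, and those with and without an apoc1 UMI were set side by side. With apoc1 detected, apoeb was found in 71.7% among 212 wildtype (65.1 to 77.7%) and 75.3% among 356 mutant cells (70.5 to 79.7%).

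Without an apoc1 UMI, the share with apoeb was 48.8% among 127 wildtype (39.9 to 57.8%) and 45.1% among 315 mutant cells (39.5 to 50.8%). In each library the intervals of cells with and without apoc1 did not overlap for apoeb. Nor did they for hey2 in mutant, found in 17.7% (13.9 to 22.1%) with and 9.21% (6.25 to 12.95%) without apoc1. In wildtype the hey2 shares were 41.04% and 27.6%, with intervals that overlapped. These intervals take cells of 1 library as units. The share of all genes with such a gap was not counted, so whether the gap of apoeb is unusual cannot be told. For aqp8a.1 the shares with and without apoc1 were 95.5% (92.8 to 97.4%) and 83.2% (78.6 to 87.1%) in mutant. In wildtype they were 97.6% and 94.5%, with intervals that overlapped. Venous UMIs averaged 5.88 with and 6.87 without apoc1 in wildtype, and 6.44 and 7.75 in mutant. Hox genes of groups 11 to 13 averaged 1.35 UMIs (SD 1.34) in wildtype cells with apoc1 and 1.13 (SD 1.19) in those without, and 1.43 (SD 1.36) and 1.04 (SD 1.18) in mutant. The collagen gene col5a1, shared with cluster 7, was found in 10.4% of wildtype cells with apoc1 and 6.30% without, and in 14.04% (10.6 to 18.1%) and 3.17% (1.53 to 5.76%) of mutant cells. As a list that includes col5a1, mesenchymal genes averaged 0.877 UMIs (SD 1.01) with and 1.102 (SD 1.15) without apoc1 in wildtype, and 0.879 (SD 1.11) and 1.11 (SD 1.28) in mutant. Endothelial genes averaged 26.5 (SD 9.83) and 26.1 UMIs (SD 10.4) in wildtype, and 19.1 (SD 6.37) and 18.2 (SD 7.17) in mutant.

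Venous UMIs were found in 98.8% of wildtype and 99.4% of mutant cells of cluster 6, so that nearly any cell with an arterial UMI also held a venous UMI. In wildtype, 220 of 334 cells (65.9%) had both, 110 had venous UMIs only and 2 had arterial UMIs only. In the mutant library, 265 of 645 cells (41.1%) had both, 376 had venous UMIs only and 3 had arterial UMIs only. The share of cells with any arterial UMI was 66.5% in wildtype (61.1 to 71.5%) and 41.6% in mutant (37.7 to 45.5%). In cluster 3 that share was 92.5% and 89.8%, and in the erythroid cluster 4 it was 3.21% and 1.67%, where venous UMIs were in 12.8% and 13.5% of cells. Venous UMIs averaged 6.30 (SD 3.15) per wildtype and 6.97 (SD 3.33) per mutant cell of cluster 6, against 3.04 and 3.85 in cluster 3.

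**Figure D3:**
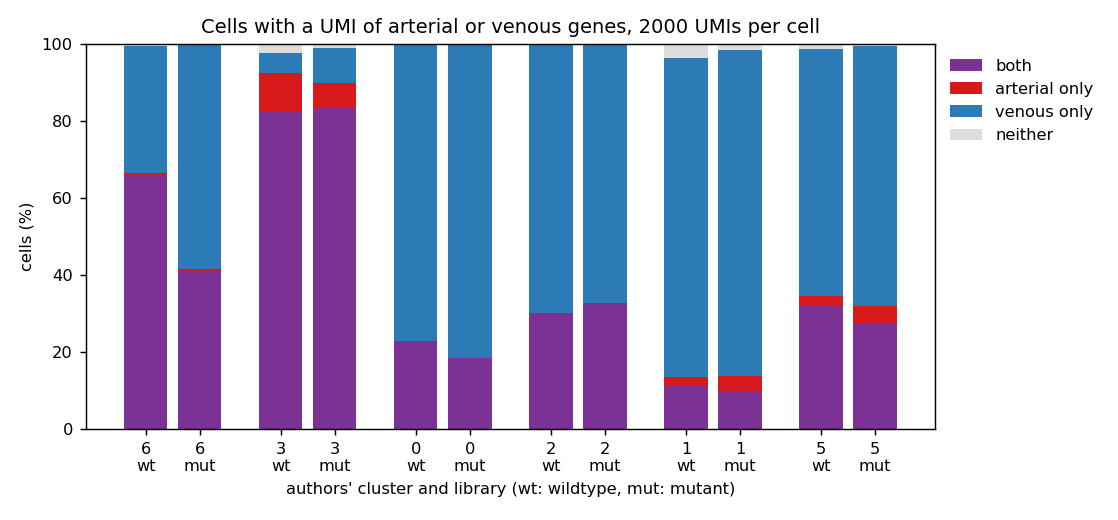
Share of cells (percent) with at least 1 UMI of arterial genes, venous genes, both or neither, after thinning each cell to 2000 UMIs, for the 6 endothelial clusters in the wildtype (wt) and mutant (mut) library. Cells with both fill 65.9% of wildtype and 41.1% of mutant cluster 6, between cluster 3 and the remaining clusters.

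Between the libraries, most genes of the cluster lay close to the diagonal. Of the 3994 genes whose mean level over both columns of cluster 6 was 20 CPM or more, 35 were at least 2-fold higher in mutant (0.876%) and 52 at least 2-fold lower (1.3%), and the median log2 ratio of mutant over wildtype (with 1 CPM added to each level) was -0.06. With median-of-ratios scaling, which moved that median to 0.04, the counts were 44 higher and 35 lower, so the balance between the directions depends on the scaling. Among the 5 markers, aqp8a.1 had a log2 ratio of 0.10 and hoxc12b of -0.08, the latter turning to 0.01 with median-of-ratios scaling and to 0.14 over the cells assigned by likelihood. Those of apoeb and apoc1 were -0.22 and -0.41 in cluster 6, while in clusters 1, 3 and 5 both genes had ratios above 0 (apoeb 0.35 to 0.91, apoc1 0.14 to 1.12).

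The ratio of capn8 was 2.05, or 4.19-fold higher in mutant (exact conditional interval 3.29 to 5.39). In clusters 1, 3 and 5 it was 1.98, 1.298 and 3.72, so the higher level in the mutant library was not particular to cluster 6. That also held for most of the genes with the largest ratios. The gene si:dkey-85k7.7 went from 49.9 CPM in wildtype to 219 CPM in mutant (log2 ratio 2.11), with 1.58 to 2.30 in clusters 1, 3 and 5. The autophagy receptor gene sqstm1 was 74.8 and 214 CPM (1.503, with 1.12 to 1.22). The disulfide isomerase gene pdia6 was 165 and 345 CPM (1.06, with 0.68 to 1.08).

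Further genes higher in the mutant columns were hapln1b, a link protein gene of hyaluronan matrix, with 67.0 and 207 CPM, and sele, a leukocyte adhesion gene, with 64.9 and 153 CPM. The 10 genes with the highest ratios at a mean of at least 100 CPM all had ratios above 0 in each of clusters 1, 3 and 5, and these clusters share their libraries with cluster 6. Of all genes tested, 57.5% had ratios above 0 in cluster 1, 51.3% in cluster 3 and 59.9% in cluster 5. The share above 0 in each of these clusters at once was not counted.

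The lowest ratio belonged to histh1l, a linker histone gene, which was 1850 CPM in wildtype (2596 UMIs) and 27.1 CPM in mutant (94 UMIs), a log2 ratio of -6.04. In clusters 1, 3 and 5 its ratio was -3.43, -5.30 and -2.95. gchfr, which codes for the feedback regulator of GTP cyclohydrolase, was 219 and 17.0 CPM (-3.61, with -2.46 to -3.46 in those clusters). The annexin gene anxa4 was 186 and 67.7 CPM, and the endothelial surface gene ecscr 378 and 145 CPM, and in clusters 1, 3 and 5 their ratios lay between -1.43 and -0.88. The tip cell gene esm1 was 716 and 290 CPM (-1.302, with -0.84 to -1.17). The embryonic globin gene hbbe1.2 was 408 and 151 CPM. It was also lower in mutant in the other endothelial clusters (554 to 1603 CPM in wildtype, 164 to 439 CPM in mutant) and in cluster 7 (777 and 248 CPM). The gene belongs to a family of near-identical copies between which counting can split reads, and the part of this in the ratio was not tested.

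**Figure D4:**
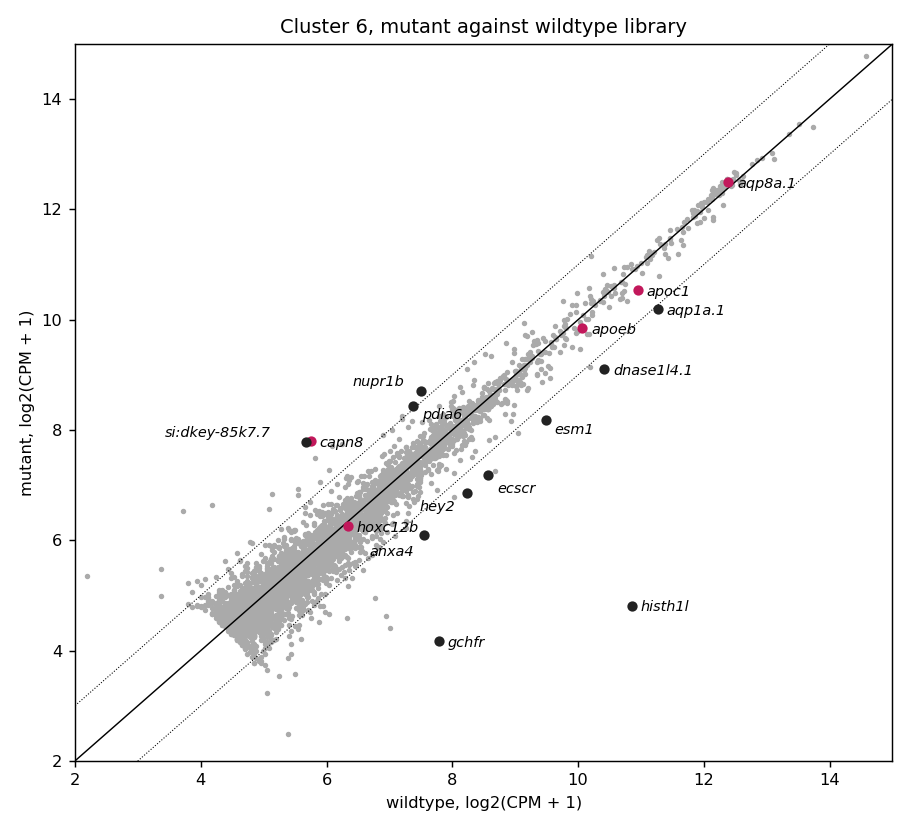
Level of each of 3994 genes in mutant against wildtype cluster 6 (log2 of CPM + 1), with the line of equal levels and dotted lines 2-fold above and below it, and the 5 markers in magenta. Most genes lie between the dotted lines, while histh1l and gchfr lie far below and capn8 and si:dkey-85k7.7 above.

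Genes whose ratio in cluster 6 departed from that in clusters 1, 3 and 5 were named by the size of the gap to the median of those 3 clusters. hey2 had 420 UMIs in wildtype (299 CPM) and 398 in mutant (115 CPM), a log2 ratio of -1.38 (interval -1.59 to -1.18). In clusters 1, 3 and 5 its ratios were 0.40, -0.20 and -0.20, and in cluster 0, where it was low, -1.53. It was low in cluster 1 too: at 2000 UMIs, 3.89% of wildtype cells there had a hey2 UMI. That share was 36.8% in wildtype cluster 6 and 33.4% in wildtype cluster 3. The uncharacterised gene si:ch73-335l21.4 was 525 and 246 CPM (-1.09), with ratios of -0.45 to 0.17 in those clusters. igfbp1a, an insulin-like growth factor binding protein gene, was 131 and 77.2 CPM (-0.76, with 0.14 to 0.31). pclaf, a PCNA-binding protein gene, was 116 and 88.7 CPM (-0.39, with 0.19 to 0.75).

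In the other direction stood nupr1b, a stress-response gene, with 180 CPM in wildtype and 416 CPM in mutant cluster 6 (1.21, with 0.39 to 0.73 in clusters 1, 3 and 5), and cplx2l, with 562 and 985 CPM (0.81, with -0.15 to 0.46). The remaining 3 genes were the globin genes hbbe1.1, hbae1.1 and hbae1.3, with ratios of 0.59, 0.12 and 0.41. Globin transcripts also filled the erythroid cluster 4, with 542 wildtype and 1117 mutant cells in the table, and the part of this in the ratios was not tested.

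Arterial genes were lower in mutant cluster 6 as a list. All 5 tested members had ratios below 0 (57.7% of all genes did), with a median of -0.95. At least 2-fold lower were 2 of them, hey2 and dll4 (-1.04), as were 1.3% of all genes. The others were flt1 (113 and 57.9 CPM, -0.95), efnb2a, the arterial ephrin gene (69.1 and 45.5 CPM, -0.59), and notch3 (48.5 and 32.8 CPM, -0.55). In clusters 1, 3 and 5 the medians of the same genes were 0.34, -0.20 and -0.20. The arterial genes were low in clusters 1 and 5, where the list summed to 170 and 246 CPM in wildtype, against 1896 CPM in cluster 3. In mutant the sums were 183 and 165 CPM, against 1488 CPM. The difference in medians between clusters has no test here.

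Venous genes went the other way by a smaller amount, with a median of 0.30 over 10 genes, of which 6 were higher in mutant (42.3% of all genes were) and none by 2-fold. In clusters 1, 3 and 5 the venous medians were -0.06, 0.51 and -0.07, so the shift in cluster 3, with 8 of 10 higher, was larger than in cluster 6. stab2 had a ratio of 0.56, the apelin receptor gene aplnra was 79.1 and 143 CPM (0.84), and aplnrb was 328 and 196 CPM (-0.74). Of the 26 tested endothelial genes, 17 were lower in mutant (65.4%, near the 57.7% of all genes) and 9 higher, with a median of -0.12. At least 2-fold lower were 3 members (ecscr, mmrn2a and aqp1a.1), as were 1.3% of all genes. The ratio of aqp1a.1 was -1.08 in cluster 6 and -0.26, -0.10 and -0.61 in clusters 1, 3 and 5. The chemokine gene cxcl12b was 324 and 602 CPM (0.89, with 0.03 to 0.45).

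DNA replication genes formed the longest list with all tested members on the same side. In wildtype cluster 6 the 24 genes summed to 2177 CPM, more than in any other wildtype endothelial cluster (352 to 1919 CPM), and in mutant cluster 6 to 1392 CPM, within 614 to 2339 CPM. Of 21 tested, 17 were highest in cluster 6 among wildtype endothelial clusters and 0 among mutant ones, where 38.3% and 28.4% of all genes were. All 21 lay above the pool in each library, as did 75.2% of all genes in wildtype and 72.4% in mutant.

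Each of the 21 had a lower level in mutant than in wildtype cluster 6 (20 of 21 with median-of-ratios scaling), with a median log2 ratio of -0.66. Of them, 3 were at least 2-fold lower, as were 1.3% of all genes. These 3 were rrm2, a ribonucleotide reductase gene (108 and 29.9 CPM, -1.81), the helicase gene mcm3 (58.4 and 27.1 CPM, -1.08) and the licensing gene cdc6 (31.4 and 14.4 CPM, -1.07). The clamp gene pcna was 488 and 286 CPM (-0.77). In cluster 1, 19 of the 21 had ratios above 0 (57.5% of all genes), in cluster 3, 18 (51.3%), and in cluster 5, 13 had ratios below 0 (40.1%), and the medians were 0.47, 0.31 and -0.17. In clusters 0 and 2, which were split by library, the medians were -1.05 and 2.13. A lower level in mutant was therefore not particular to cluster 6. Mitotic genes of cluster 6 did not share the shift, with 8 of 14 lower (57.1%, near the 57.7% of all genes) and a median of -0.05. That median was 0.21 over the cells assigned by likelihood, and in clusters 0 and 2 the medians of the list were -1.94 and 2.23.

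**Figure D5:**
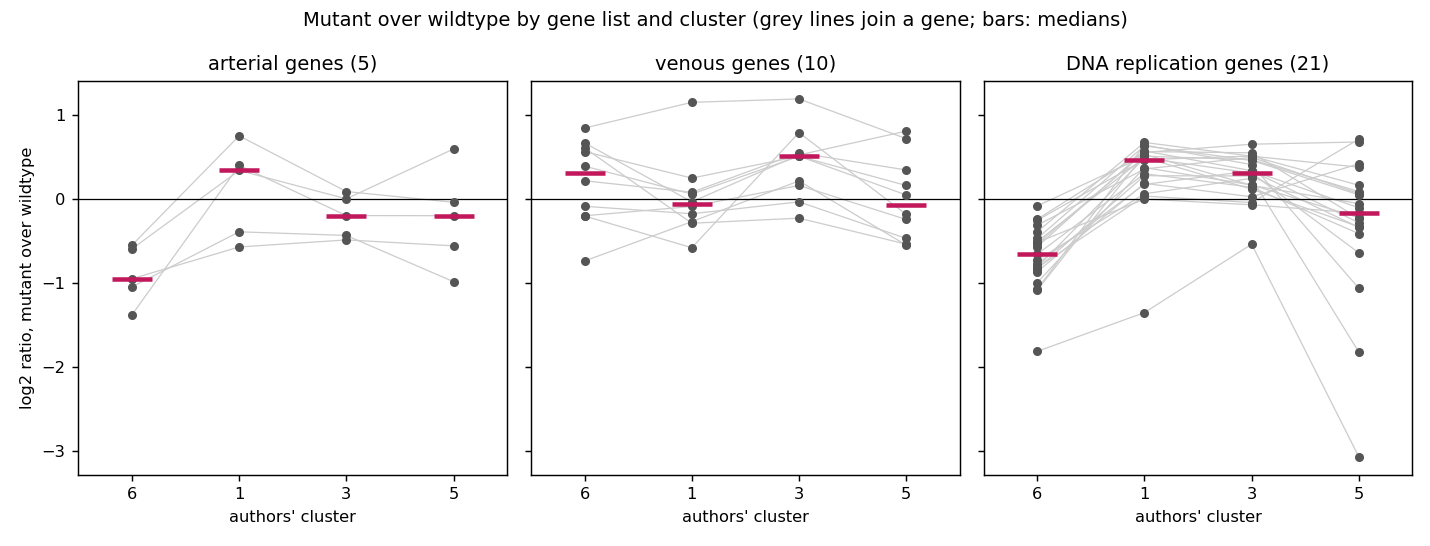
Log2 ratio of mutant over wildtype for the tested arterial, venous and DNA replication genes in clusters 6, 1, 3 and 5, with grey lines joining a gene and bars at the medians. In cluster 6 all arterial and all replication genes lie below 0 (20 of the 21 replication genes with median-of-ratios scaling), with medians of -0.95 and -0.66.

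At the level of single cells, a replication UMI was present in 80.8% of wildtype (76.2 to 84.9%) and 70.4% of mutant cells of cluster 6 (66.7 to 73.9%) at 2000 UMIs. The mean was 4.67 UMIs per wildtype cell (SD 5.07) and 2.74 per mutant cell (SD 3.55). Mitotic genes averaged 8.24 (SD 7.73) and 8.15 UMIs (SD 9.23). Cells of both kinds spread widely, and the spread between cells exceeded the difference of the means for each list.

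Of the remaining lists, the 2 tested apolipoprotein genes were both lower in mutant, as given above. The 20 tested Hox genes had a median of -0.10 (0.0906 over the cells assigned by likelihood) with none 2-fold apart, the 11 matrix genes 0.05, and the 23 N-glycan synthesis genes -0.02 (0.0740 with median-of-ratios scaling). Group 13 of the Hox genes was 0.637-fold in mutant (0.521 to 0.780), while groups 9 to 12 lay between 0.890-fold and 1.18-fold. Groups 1 to 8 ranged from 0.646-fold (group 4, 5 and 8 UMIs) to 1.89-fold (group 1, 3 and 14 UMIs). Among them group 6 was 0.693-fold (0.535 to 0.902), so a lower level was not particular to group 13. Of the 9 angioblast genes, 6 were lower (66.7%, next to 57.7% of all genes), with a median of -0.34 (sox7 688 and 464 CPM, etv2 1156 and 859 CPM). The reporters of the lines are in the table too: mCherry was 142 CPM in wildtype and 231 CPM in mutant cluster 6, and eGFP 7.84 and 51.5 CPM, the wildtype value resting on 11 UMIs.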

How the data were processed

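The deposited matrices hold raw UMI counts, made with Cell Ranger on GRCz11 per the submitters' processing notes, which also name bcl2fastq and Seurat; the file headers give software version 3.0.2. The authors' second deposited table gives the mean UMI signal per cell for 17822 genes in 15 clusters and each library. Multiplying each column by the inverse of its smallest value above 0 made all 534660 values whole (tolerance 1e-06), which gave UMI sums and cells. The filter and clustering behind it are not given in the sources used here. For single cells, barcodes with under 500 genes or over 10% mitochondrial UMIs were dropped; Scrublet (scanpy 1.11.5, expected share 6%) removed 39 wildtype and 224 mutant doublets (0.519% and 2.65%), leaving 7481 and 8240 cells, which were assigned by multinomial likelihood to the table's columns. Log2 ratios have a pseudocount of 1 CPM and a floor of 20 CPM. UMIs are not scaled by gene length. Scripts were tested on simulated data. The members and gene lists were chosen with earlier results of these data known. Named genes are the 5 markers, list members, the 20 highest and 10 lowest against other endothelial clusters, the 10 highest and 10 lowest between libraries at 100 CPM or more, and the 5 largest gaps each way to clusters 1, 3 and 5. The targeted microRNA gene is not reported here.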

Additional observations from a re-analysis of the deposited data

How the results depend on the processing

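No paired analysis was possible because each genotype was 1 library. With all 15 clusters as the denominator the share difference was 4.73 points, and 3.43 points over cells assigned by likelihood, with a ratio of shares of 1.76 in place of 3.15. The count of genes above each other endothelial cluster was 11 with a floor of 50 CPM, 56 with no floor, 75 against clusters 1, 3 and 5 alone and 79 against the pool (chosen after seeing the data), and the count below was 11 with no floor, 2 as UMIs per cell and 44 against the pool. Counts of genes 2-fold higher and lower in mutant were 18 and 21 with a floor of 50 CPM, and 780 and 719 with no floor, since genes of few UMIs then enter. Medians over lists moved to -0.0311 (endothelial) and -0.25 (angioblast) with median-of-ratios scaling and to 0.0906 (Hox), -0.23 (angioblast) and 0.21 (mitotic) over cells assigned by likelihood, and the N-glycan median turned to 0.0740 with median-of-ratios scaling, so the signs of the Hox, mitotic and N-glycan medians are not settled. Those of the arterial, venous and replication lists kept their sign under each alternative run (arterial -1.08 to -0.86, venous 0.29 to 0.43, replication -0.68 to -0.56). As UMIs per cell, the Hox folds over the pool in wildtype and mutant were 1.40 and 1.24 (group 9), 1.73 and 1.78 (group 10), 2.41 and 2.14 (group 11) and 5.72 and 4.15 (group 12). Over cells assigned by likelihood, group 9 turned to 0.958 in wildtype, group 10 was 1.39 in mutant, group 11 1.62 and 1.61, group 12 3.77 and 3.17, and group 13 11.4 in mutant; the cause was not tested. The share of cells with apoc1 was 73.6% and 66.8% at 4000 UMIs and 82.5% and 74.8% unthinned, and that with aqp8a.1 99.1% and 98.0% unthinned, 96.2% in mutant at 4000 UMIs and 89.7% in mutant with the markers left out of the assignment. Of 120 values of single genes between libraries 105 stayed within their spread, 15 moved beyond it and 2 had the other sign, both for hoxc12b (0.01 and 0.14, against -0.08). For single genes of cluster 6 against the other clusters, 100 of 120 values stayed within their spread, 20 moved beyond it and none had the other sign. Over cells assigned by likelihood, fkbp11 and fkbp10b fell short of 2-fold (smallest log2 ratios 0.79 and 0.58). The shallow mutant cluster 2 and the lack of replicates limit these data.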
